A study of Mus musculus with 15 samples.

Results

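The genes described here encode the Rag GTPases (Rraga, Rragb, Rragc and Rragd) and folliculin with its partners (Flcn, Fnip1 and Fnip2). They also encode subunits of the mTORC1 kinase complex (Mtor and Rptor) and its activator (Rheb). They were taken by symbol from a fixed list of 10, each with the probe set of highest mean, and all 10 were found among the 19938 genes with a named probe set. Each of them had 1 probe set. Expression was measured on 15 Affymetrix MoGene 1.0 ST arrays of sorted cells, and all groups shared the mouse strain (FVB/NJ), the tissue (fetal liver) and the age (E14.5). The embryos were either wildtype (WT) or Klf3 knockout (KO), and the cells were either TER119+ (taken on magnetic beads) or TER119- (what was left after depletion). The groups were 4 WT TER119-, 4 KO TER119-, 4 WT TER119+ and 3 KO TER119+ arrays. The labels describe neither the Klf3 allele nor the purity of the fractions. They do not state that replicates were separate embryos, so the p-values cover only the spread among these arrays, part of which may be technical.

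mTORC1 is a kinase complex that drives protein synthesis and cell growth when amino acids are plentiful. Amino acids act through the Rag GTPases, which work as pairs of RagA or RagB with RagC or RagD on the surface of the lysosome and bring mTORC1 there, where the small GTPase RHEB switches it on. Folliculin, bound to FNIP1 or FNIP2, is the GTPase-activating protein for RagC and RagD. KLF3 is a zinc finger repressor that binds CACCC boxes in DNA.

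In the RefSeq annotation of GRCm38.p6, chromosome 4 carries Rraga (86575673 to 86577285), Rragc (123917433 to 123936997), Rragd (32982998 to 33022180) and Mtor (148448582 to 148557685). Chromosome 11 carries Flcn (59791408 to 59810039), Fnip1 (54438107 to 54518241) and Rptor (119602905 to 119899591), while Fnip2 (79455971 to 79568151) lies on chromosome 3, Rheb (24802823 to 24842361) on chromosome 5 and Rragb (153137644 to 153190192) on the X chromosome.

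The values are log2 expression after RMA, in which a difference of 1 is a 2-fold change, and the levels of different probe sets cannot be set against each other. Klf3 itself did not separate the genotypes. It read 10.34 to 10.55 on KO and 9.94 to 10.50 on WT TER119+ arrays, and 8.02 to 8.74 on KO and 7.94 to 8.80 on WT TER119- arrays. Its difference, KO minus WT, was 0.24 (SE 0.20, adjusted p = 1) in TER119+ and -0.04 (SE 0.19, adjusted p = 0.947) in TER119- cells. Whether its probe set lies in the deleted part is not known, so genotype is taken from the labels alone, and KO arrays are written as KO-labelled. The mean of 12 measured red cell precursor markers lay between 10.58 and 10.98 on TER119+ arrays and between 7.61 and 7.96 on TER119- arrays, in the direction of the labels. The TER119+ fraction also carried RNA of other cells: the mean of 13 hepatocyte-lineage markers lay between 11.31 and 12.00 there, against 5.84 to 8.52 in TER119- cells. On the first principal component of the TER119- arrays, 3 of the 8 lay far from the rest (WT replicates 2 and 4, KO replicate 4); it held 54.2% of the variance. In such mixed fractions, fewer cells of a type and less RNA per cell cannot be told apart.

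Rragd, which encodes RagD, was the member that changed with genotype. It rose in KO-labelled TER119+ cells more than any other of the 19938 genes, and by a smaller amount in KO-labelled TER119- cells. The start of this gene is therefore shown first, beside that of Rragc, which encodes the paralog RagC and did not pass the test in either KO comparison, and that of Ube2j1, the next measured gene along the chromosome, which rose in TER119+ cells as well. The windows hold 250 bases before and 50 after the annotated start, from RefSeq (build GRCm38.p6), all on the plus strand: chr4:32982748-32983047 for Rragd, chr4:123917183-123917482 for Rragc and chr4:33031130-33031429 for Ube2j1. Capitals mark matches to CACCC or its reverse complement GGGTG.
Rragd: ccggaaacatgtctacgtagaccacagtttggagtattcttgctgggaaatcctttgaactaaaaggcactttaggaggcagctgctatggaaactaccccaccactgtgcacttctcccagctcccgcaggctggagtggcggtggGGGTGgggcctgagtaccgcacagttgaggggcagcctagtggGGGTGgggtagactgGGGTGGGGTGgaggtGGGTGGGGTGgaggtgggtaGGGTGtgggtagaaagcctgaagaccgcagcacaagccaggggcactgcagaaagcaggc
Rragc: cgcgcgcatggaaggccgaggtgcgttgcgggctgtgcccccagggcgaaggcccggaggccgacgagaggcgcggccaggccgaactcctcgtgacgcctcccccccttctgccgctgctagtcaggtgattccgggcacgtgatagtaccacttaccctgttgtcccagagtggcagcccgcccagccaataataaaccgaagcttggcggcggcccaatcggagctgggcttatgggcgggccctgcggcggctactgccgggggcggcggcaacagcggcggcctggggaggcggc
Ube2j1: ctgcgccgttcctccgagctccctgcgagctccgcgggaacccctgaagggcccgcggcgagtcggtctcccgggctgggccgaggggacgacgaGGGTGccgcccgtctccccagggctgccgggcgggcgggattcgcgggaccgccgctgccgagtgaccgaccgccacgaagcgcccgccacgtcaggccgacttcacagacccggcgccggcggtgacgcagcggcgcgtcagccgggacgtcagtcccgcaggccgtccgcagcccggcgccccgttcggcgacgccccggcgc

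The Rragd window held 7 matches to CACCC, all of them as GGGTG on the strand shown, with first bases between 103 and 10 bases before the start. The matches did not overlap. The Rragc window held 0 and the Ube2j1 window 1. Over the 32851 windows of the table, both strands searched, 57.5% held at least 1 match, the median was 1 match, and 0.128% (42 windows) held 7 or more. All 10 genes had 1 window each, and 7 of them (70%) held at least 1 match. For 7 of the genes the window lay at the outermost annotated start, while for Fnip1, Fnip2 and Rragb it lay at a start 72, 472 and 2314 bases inside the gene. Fnip1 had 4 matches, Rraga 2, and Rragb, Flcn, Mtor and Rheb 1 each, while Rragc, Fnip2 and Rptor had 0. The palindrome CACGTG, the core of the sites bound by the lysosomal transcription factors TFEB and TFE3, was in the windows of Rragb (3 matches), Rragc, Fnip1 and Rheb (1 each), and in 7.15% of all windows. These are matches of letters only, and no binding was measured here.

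The first comparison asked what differs between KO-labelled and WT cells within each population. On TER119+ arrays Rragd read 9.50, 9.40 and 9.44 for KO-labelled cells against 4.71, 4.69, 4.80 and 4.53 for WT cells. The groups were far apart, and the values within each lay close together. Rragd rose by 4.77 (SE 0.15, 95% interval 4.45 to 5.08, adjusted p = 1.66e-11 by limma with Benjamini-Hochberg adjustment), which is 27.2-fold on this scale. It ranked 1 of 19938 genes by size of rise. Without detection calls it is unknown if the WT level was above background, and the fold is not exact.

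On TER119- arrays Rragd read 5.21, 5.71, 5.96 and 5.28 for KO-labelled cells against 4.63, 4.78, 4.51 and 4.79 for WT cells. All 4 KO-labelled arrays were above all 4 WT arrays, and they were spread more widely (SD 0.35) than in TER119+ cells (SD 0.05). The rise was 0.86 (SE 0.14, 95% interval 0.57 to 1.16, adjusted p = 0.0236), or 1.82-fold, and ranked 13 by size. The call was not kept in several other fits: adjusted p was 0.0954 with sex as a factor (difference 0.97), 0.115 with the hepatocyte-marker mean as a covariate (0.75), 0.459 with only the TER119- arrays fitted (0.86) and 0.0687 without the 3 arrays that stood apart (1.05). It was also lost without KO replicate 2 (adjusted p = 0.106) or 3 (0.069), or without WT replicate 1 (0.0658), 2 (0.069) or 3 (0.0529). By Xist and Y-linked genes all 4 WT TER119- arrays were male and 3 of the 4 KO-labelled ones female. The male KO-labelled array, replicate 2, stood at 5.71, above the WT range of 4.51 to 4.79. That is 1 array, and with no female WT array, genotype and sex cannot be told apart within this population.

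The rise of Rragd was larger in TER119+ than in TER119- cells by 3.90 (SE 0.20, adjusted p = 4.48e-08 for the interaction), again rank 1 of all genes. In the order of its levels, KO-labelled TER119+ cells came first (9.45 ± 0.05, SD, n = 3), then KO-labelled TER119- cells (5.54 ± 0.35, n = 4). The WT groups stood together, at 4.68 ± 0.13 (SD, n = 4) in TER119- and 4.68 ± 0.11 (n = 4) in TER119+ cells, with a difference of 0.01 (95% interval -0.29 to 0.30). In WT cells the level of Rragd thus did not separate the populations, whereas in KO-labelled cells it was 3.91 higher in TER119+ (SE 0.15, adjusted p = 3.78e-12). Whether either WT level was above background is unknown, which also limits the sizes of the TER119- rise and of the interaction.

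**Figure D1:**
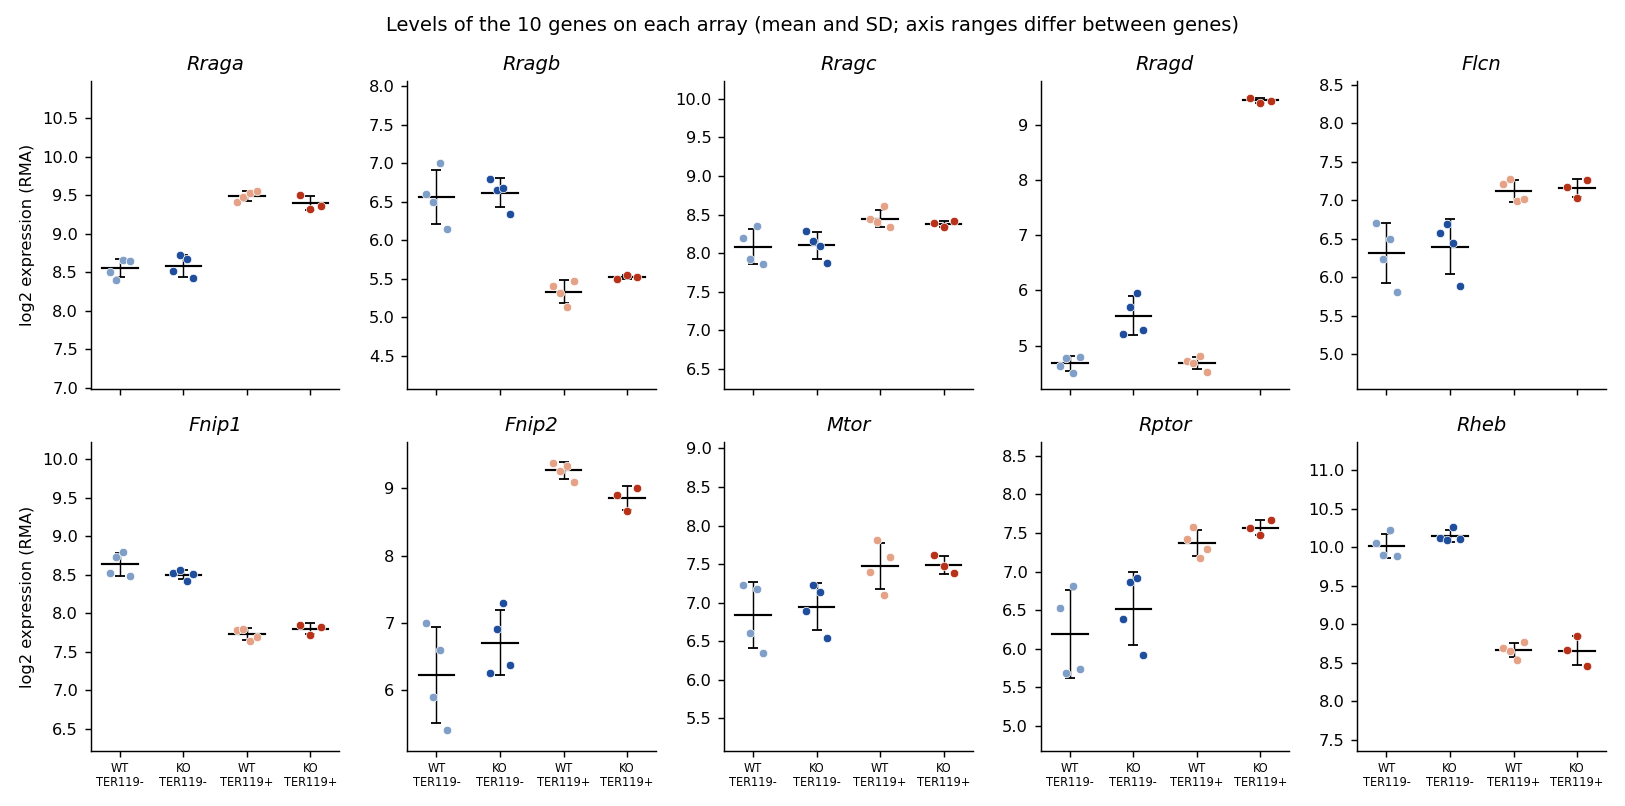
Log2 expression of the 10 genes on every array, in WT and KO TER119- and WT and KO TER119+ cells, with points for arrays and black bars for the mean and SD of 4, 4, 4 and 3 arrays; the axis range differs between genes. Rragd is near 9.4 in the KO TER119+ arrays and below 6 in all others, while Fnip2, Rheb, Rragb and Rraga are separated by population.

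The other Rag GTPases did not pass the test in either KO comparison. Rragc read 8.39, 8.33 and 8.41 on KO-labelled and 8.44, 8.40, 8.61 and 8.34 on WT TER119+ arrays. These groups overlapped, and the difference was -0.07 (95% interval -0.33 to 0.20, adjusted p = 1). Rraga, which encodes RagA, differed by -0.10 (95% interval -0.31 to 0.12) in TER119+ and 0.03 (-0.17 to 0.23) in TER119- cells. Rragb, the X-linked gene of RagB, read 5.49, 5.55 and 5.53 on KO-labelled and 5.40, 5.31, 5.13 and 5.47 on WT TER119+ arrays. Its groups did not overlap, but the difference of 0.19 (95% interval -0.15 to 0.53, adjusted p = 1) did not pass. In TER119- cells the differences of Rragb and Rragc were 0.06 (95% interval -0.26 to 0.37) and 0.02 (-0.23 to 0.27). The intervals leave room for changes of these 3 genes of up to 1.44-fold in TER119+ cells, against 27.2-fold for Rragd.

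None of the folliculin and mTORC1 genes passed in a KO comparison either. Fnip2, a binding partner of folliculin, had the widest spread. In TER119+ cells it stood at 8.90, 8.67 and 9.004 in KO-labelled and at 9.39, 9.25, 9.34 and 9.10 in WT arrays, so that every KO-labelled array was below every WT array. The difference was -0.41 (95% interval -1.05 to 0.23, adjusted p = 1). Each test pooled the spread over all 4 groups. The SDs of Fnip2 were 0.17 (KO-labelled) and 0.13 (WT) in TER119+ cells, against 0.49 and 0.71 in TER119- cells. Under 9 other settings its TER119+ difference ran from -0.56 to -0.37, with a lowest adjusted p of 0.14 by limma. In TER119- cells, where its arrays overlapped, the difference was 0.48 (95% interval -0.11 to 1.08, adjusted p = 0.672). The interaction for Fnip2 was -0.89 (SE 0.41, unadjusted p = 0.0455, adjusted p = 0.999 over all genes), so a difference between the populations was not called. Flcn differed by 0.03 and 0.08, and Fnip1 by 0.07 and -0.13, in TER119+ and TER119- cells. For Mtor, the kinase, the differences were 0.02 (95% interval -0.45 to 0.48) and 0.11 (-0.32 to 0.54), and for Rptor, which encodes the subunit that binds substrates, 0.20 and 0.33. Rheb differed by -0.01 (95% interval -0.24 to 0.23) and 0.13 (-0.09 to 0.35).

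Of the 10 genes 1 rose and 0 fell in each KO comparison. Of all genes 1.02% were called in TER119+ cells (0.903% higher, 0.115% lower) and 0.0853% in TER119- cells (0.0752% higher, 0.01% lower). Values did not overlap between the genotypes for 3 of the 10 in TER119+ cells (10.1% of all genes) and for 1 in TER119- cells (2.63%). The median difference of the 10 was 0.02 in TER119+ and 0.10 in TER119- cells, beside -0.01 and -0.02 for all genes. In the interaction 1 of the 10 was called, against 0.436% of all genes (0.371% higher, 0.0652% lower). Rragd was known to rise in these data when the list was drawn up.

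**Figure D2:**
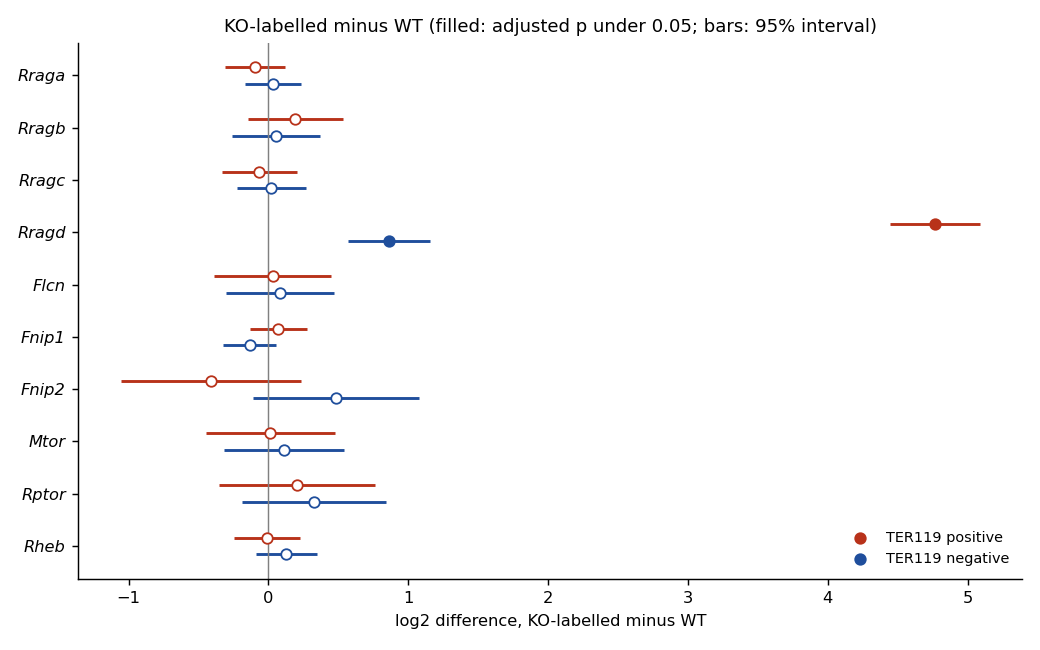
Log2 difference, KO-labelled minus WT, of each gene in TER119 positive and TER119 negative cells, with bars for the 95% interval and filled points for adjusted p under 0.05. Only the Rragd points, at 4.77 and 0.86, are filled, and every other interval includes 0.

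Markers of red cell precursors and of other cells were measured beside these results. In TER119- cells the 12 red cell precursor markers had a median difference of 0.37, with 0 called and 6 at an unadjusted p under 0.05 (7.56% of all genes). Of these 6, named after their values were seen, Alas2 (0.68, adjusted p = 0.226), Epb42 (0.55), Slc4a1 (0.53) and Gata1 (0.41) were on the higher side and the embryonic globin genes Hba-x (-1.09) and Hbb-y (-1.10) on the lower side. The embryonic globin gene Hbb-bh1 was lower too (-0.60), and the rest of the list was on the higher side, from 0.03 (Klf1) to 0.68 (Alas2). These opposite signs offset each other in the list mean. That mean lay between 7.61 and 7.96 in KO-labelled and between 7.73 and 7.90 in WT TER119- arrays. In TER119+ cells the median difference of the list was 0.05, with 0 called and 1 at an unadjusted p under 0.05 (5.33% of all genes). The differences there ran from -0.24 (Klf1) to 1.27 (Hba-x). The embryonic globin genes Hbb-y (0.64) and Hbb-bh1 (0.24) were on the higher side too. Values did not overlap between the genotypes for 6 of the 12 (10.1% of all genes). In TER119+ cells the mean of 6 megakaryocyte and platelet markers lay between 8.61 and 8.92 in KO-labelled and between 9.30 and 9.67 in WT arrays, with 0 of 6 called and a median difference of -0.72. Among 12 macrophage markers 1 was lower, the complement receptor gene Vsig4 (-1.21, SE 0.17, adjusted p = 0.000491), and the list mean lay between 8.24 and 8.44 in KO-labelled and between 8.37 and 8.69 in WT arrays. The 13 hepatocyte-lineage markers had a median difference of 0.08 in TER119+ cells and -0.87 in TER119- cells, with 0 called in either, and the 9 neutrophil precursor markers 0.30 and -0.27, with 0 called. The part of these cells in the member values was not tested, apart from the hepatocyte-marker covariate, with which the rise of Rragd in TER119+ cells was 4.77 (adjusted p = 5.46e-12).

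The 3 measured genes on each side of Rragd on chromosome 4 were compared next. Ube2j1, which encodes a ubiquitin-conjugating enzyme of the endoplasmic reticulum, starts 9.2 kb beyond the end of Rragd. It read 9.57, 9.56 and 9.68 on KO-labelled and 8.54, 8.62, 8.46 and 8.49 on WT TER119+ arrays. These groups did not overlap, and Ube2j1 rose by 1.08 (SE 0.09, adjusted p = 1.89e-06). In TER119- cells it differed by 0.16 (95% interval -0.02 to 0.34, adjusted p = 0.655), and the interaction was called (0.92, SE 0.12, adjusted p = 0.000856). The other 5 neighbours, Mdn1, Lyrm2 and Ankrd6 on the one side and Gabrr2 and Gabrr1 on the other, did not pass in either population. Ankrd6, 32.1 kb away, differed by 0.01 (95% interval -0.21 to 0.23) in TER119+ cells, and Gabrr2, 35.5 kb away, by 0.16 (-0.06 to 0.39).

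**Figure D3:**
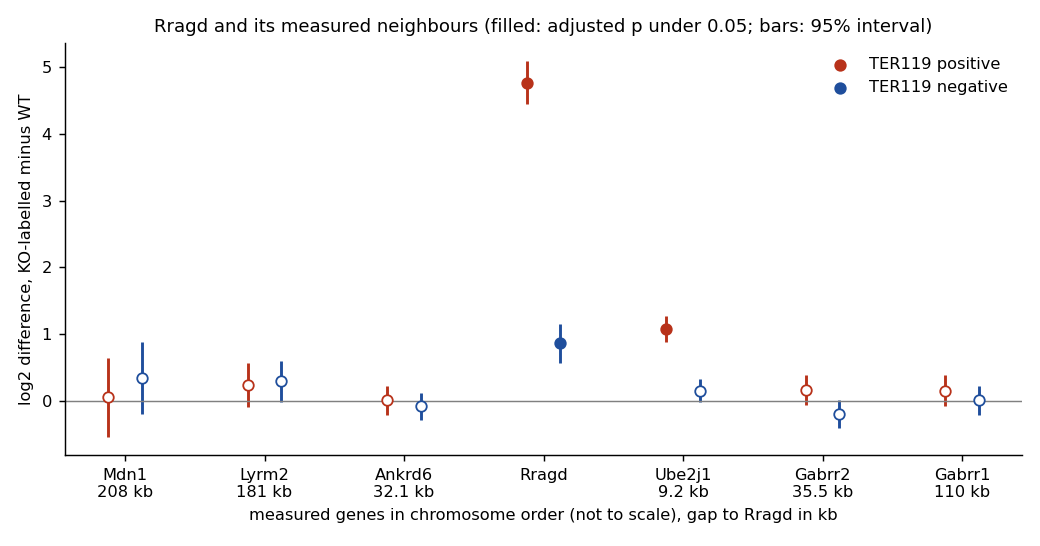
Log2 difference, KO-labelled minus WT, of Rragd and the 3 measured genes on each side of it in chromosome order, with the gap to Rragd in kb under each name, bars for the 95% interval and filled points for adjusted p under 0.05. Rragd (4.77) and Ube2j1 (1.08) are filled in TER119 positive cells, and in TER119 negative cells Rragd (0.86).

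The genes whose pattern was most like that of Rragd were found by the root mean square difference of log2 values over the 15 arrays, each gene centred on its own mean. The measure uses the same arrays and genotypes, so it describes and tests nothing. The nearest was Pqlc3, a gene of the PQ-loop family of membrane transporters, at 0.35, followed by Kdelr3 (0.70), whose product returns proteins to the endoplasmic reticulum, Lgals3 (0.73), which encodes galectin-3, Klf8 (0.78), which encodes a repressor related to KLF3, and Cttnbp2nl (0.81), which encodes a cytoskeletal adaptor. Pqlc3 stood between 10.50 and 10.84 in KO-labelled TER119+ arrays and between 6.38 and 6.78 in WT ones. In TER119- cells it lay between 7.05 and 7.45 in KO-labelled and between 6.24 and 6.79 in WT arrays, which also did not overlap, though the difference of 0.58 did not pass (SE 0.14, adjusted p = 0.256). Klf8, like Rragd, was called higher in both populations by limma. It rose by 3.06 (SE 0.12, adjusted p = 1.64e-10) in TER119+ and 0.75 (SE 0.11, adjusted p = 0.0148) in TER119- cells. Kdelr3, Lgals3 and Cttnbp2nl were not called in TER119- cells.

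The second comparison asked how the 10 genes differ between TER119+ and TER119- cells. In WT cells 6 of the 10 were higher in TER119+ cells and 3 lower, and Rragd did not pass. Of all genes 52.6% were called, 23.5% higher and 29.1% lower, so that calls were common in this comparison. The median of the 10 was 0.50, against -0.09 over all genes. Values did not overlap between the populations for 7 of the 10 (45.6% of all genes). The hepatocyte-lineage and macrophage markers were higher in TER119+ WT cells as well (13 of 13 and 12 of 12 called, medians 4.07 and 3.05), as were 10 of 12 red cell markers (median 3.09). The 8 progenitor and 9 neutrophil precursor markers were all lower (medians -2.27 and -5.16). The differences below are therefore between mixed fractions, and the cell type behind each was not tested. The array names given in the labels' description field, unlike the titles, follow a different pattern in each population, so a batch effect aligned with population cannot be told apart.

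Rraga and Rragb went in opposite directions. Rraga stood at 9.41, 9.47, 9.53 and 9.56 in WT TER119+ arrays and at 8.51, 8.40, 8.65 and 8.65 in WT TER119- arrays. These did not overlap, and Rraga was higher by 0.94 (SE 0.09, adjusted p = 2.46e-07). Rragb, its close relative, read 5.40, 5.31, 5.13 and 5.47 in TER119+ and 6.60, 6.50, 7.00 and 6.14 in TER119- cells. It was lower by 1.23 on the log2 scale in TER119+ cells (difference -1.23, SE 0.15, adjusted p = 2.33e-06), and its groups did not overlap either. Rragc was 0.37 higher (SE 0.12, adjusted p = 0.0146) with overlapping arrays, and this call was lost without the 3 arrays that stood apart (0.18, adjusted p = 0.153).

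The folliculin partners also went in opposite directions. Fnip2 stood at 9.39, 9.25, 9.34 and 9.10 in WT TER119+ arrays and at 7.00, 5.90, 6.60 and 5.40 in WT TER119- arrays. It had the largest population difference of the 10 in WT cells, 3.04 (SE 0.28, adjusted p = 9.29e-08), or 8.23-fold. Fnip1, the other partner, stood at 7.79, 7.80, 7.64 and 7.69 in TER119+ and at 8.53, 8.73, 8.80 and 8.49 in TER119- cells, a difference of -0.91 (SE 0.09, adjusted p = 2.13e-07). Flcn itself was 0.81 higher in TER119+ cells (SE 0.18, adjusted p = 0.00126), and 0.52 higher without the 3 arrays that stood apart. All 3 genes had groups that did not overlap in WT cells.

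Of the mTORC1 genes, Rheb was lower in TER119+ cells, and Mtor and Rptor were higher. Rheb stood at 8.69, 8.66, 8.54 and 8.78 in WT TER119+ arrays and at 10.05, 9.90, 10.23 and 9.89 in WT TER119- arrays, a difference of -1.35 (SE 0.10, adjusted p = 1.02e-08) with no overlap. Rptor was 1.18 higher (SE 0.24, adjusted p = 0.0006), with 7.42, 7.58, 7.18 and 7.30 against 6.53, 5.69, 6.82 and 5.74, and was 0.70 higher without the 3 arrays that stood apart. Mtor was 0.64 higher (SE 0.20, adjusted p = 0.0138) with overlapping arrays. That call was lost without the 3 arrays that stood apart (0.27, adjusted p = 0.19), without WT TER119+ replicate 2 (0.52, adjusted p = 0.053) and without WT TER119- replicate 4 (0.47, adjusted p = 0.0529). In TER119- cells the 3 lowest of the 8 values of Flcn, Mtor, Rptor, Rragb and Rragc were each on those 3 arrays, whose hepatocyte-marker means lay between 7.34 and 8.52. Those genes were named after their values were seen. For Rraga, Rragd, Fnip1, Fnip2 and Rheb the 3 lowest values were not all on those arrays. Another WT TER119- array, replicate 3, had a hepatocyte-marker mean of 7.80 and the highest Rragb and Rragc of the 8. The cause of the low values on the 3 arrays was not tested.

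KO-labelled cells were compared in the same way; the WT and KO comparisons use different arrays. Again 6 of the 10 were higher in TER119+ cells and 3 lower (22.6% and 26.5% of all genes, 49.0% in all), with Rragd called higher in place of Rragc, which did not pass (0.28, adjusted p = 0.0795). Values did not overlap between the populations for any of the 10 (56.1% of all genes). Fnip2 was 2.15 higher (SE 0.30), Rraga 0.81 (SE 0.10), Flcn 0.76 (SE 0.20) and Rptor 1.05 (SE 0.26). Rheb (-1.49, SE 0.11), Rragb (-1.09, SE 0.16) and Fnip1 (-0.70, SE 0.10) were lower. The call of Mtor (0.54, adjusted p = 0.0495) was marginal: leaving out KO TER119+ replicate 1, 2 or 3, WT TER119+ replicate 1 or 4, KO TER119- replicate 1 or 4 or WT TER119- replicate 2 gave adjusted p-values between 0.0528 and 0.148, and it was lost with the replicate block (0.45, adjusted p = 0.0993), with sex as a factor (0.0615) and with a prior variance that followed the mean level (0.0505). Apart from Rragd, no member had a population difference that was called as different between the genotypes.

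**Figure D4:**
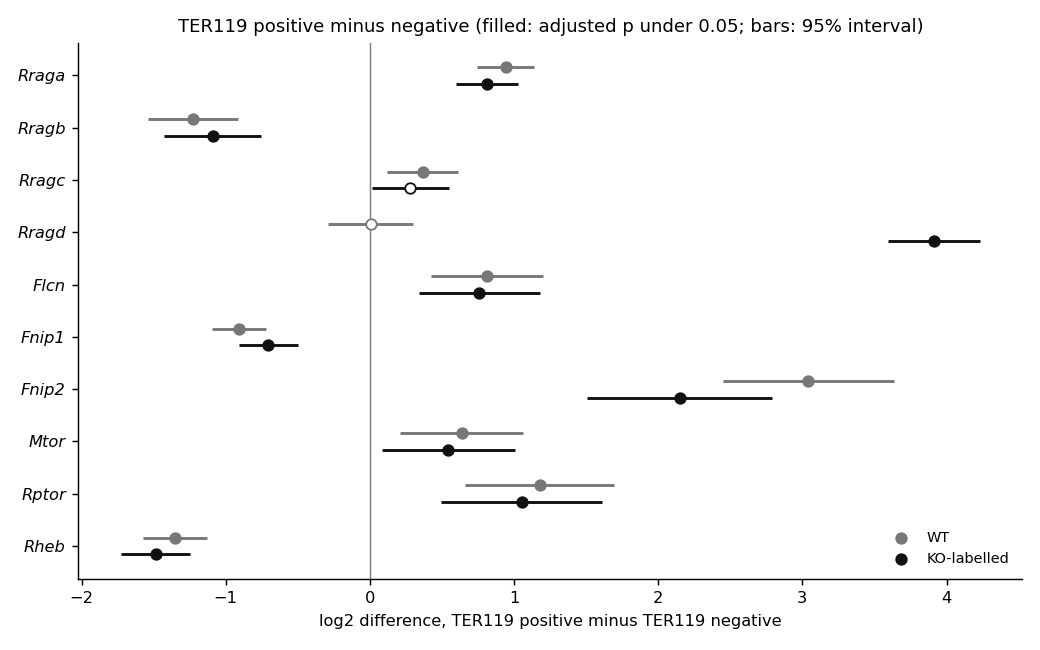
Log2 difference, TER119 positive minus TER119 negative, of each gene in WT and in KO-labelled cells, with bars for the 95% interval and filled points for adjusted p under 0.05. Rheb, Rragb and Fnip1 lie below 0 and Fnip2 far above it in both genotypes, while Rragd is at 0.01 in WT and 3.91 in KO-labelled cells.

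The rest of the pathway was followed through 10 lists with 96 genes, of which 89 were measured. In neither KO comparison, nor in the interaction, did any of the 89 pass (lowest adjusted p 0.392 in TER119+ and 0.270 in TER119- cells by limma). At an unadjusted p under 0.05 there were 2 in TER119+ cells (5.33% of all genes), 10 in TER119- cells (7.56%) and 3 in the interaction (4.27%). The pair in TER119+ cells, named after its values were seen, was Lpin1 (0.39), which encodes a phosphatidate phosphatase that mTORC1 phosphorylates, and Castor1 (0.37), which encodes the arginine sensor. The 3 in the interaction, likewise named after the fact, were Lpin1 (0.47), Akt1s1 (0.53) and the lysosomal membrane gene Cd63 (0.77). The lowest adjusted p in TER119- cells was that of the mTOR inhibitor gene Deptor, also named after the fact, which lay between 5.51 and 5.89 in KO-labelled and between 4.90 and 5.35 in WT arrays (0.52, SE 0.13, adjusted p = 0.270). The median difference of the 89 was 0.04 in TER119+ and 0.06 in TER119- cells. The genotypes did not overlap for 8 of the 89 in TER119+ cells (10.1% of all genes) and 3 in TER119- cells (2.63%). Each test used a spread pooled over both populations, and the 89 were not examined with 1 population alone. Eef2k, named after the fact, lay between 8.45 and 8.62 in KO-labelled and between 8.84 and 9.09 in WT TER119+ arrays. Its SDs were 0.09 and 0.13 there, against 0.55 and 0.64 in TER119- cells. The 4 MiT/TFE transcription factor genes, whose products switch on lysosomal genes and are known to act on Rragd, differed by -0.18 to -0.08 in TER119+ and by -0.30 to 0.19 in TER119- cells. For the 21 measured genes of lysosomal membrane proteins and hydrolases the differences ran from -0.19 to 0.31 in TER119+ cells, and for the 15 of the proton pump, the vacuolar ATPase, from -0.22 to 0.21.

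Between the populations many of these genes differed. In WT cells 49 of the 89 were higher in TER119+ cells and 19 lower (23.5% and 29.1% of all genes), with a median of 0.46. Ragulator and SLC38A9 anchor the Rag GTPases to the lysosome, and of their 6 genes 0 were higher and 3 lower, among them Lamtor4 (-2.17, SE 0.18, adjusted p = 2.71e-08) and the arginine-sensing transporter gene Slc38a9 (-0.94, SE 0.11, adjusted p = 1.03e-06). GATOR1 switches RagA and RagB off and KICSTOR anchors it; of 5 measured genes 3 were higher and 1 lower. The GATOR1 gene Nprl3, whose introns hold the enhancers of the alpha-globin genes, stood between 7.95 and 8.40 in TER119+ and between 5.46 and 5.72 in TER119- WT arrays (2.55 higher, SE 0.11, adjusted p = 6.02e-12). Kptn, of KICSTOR, was 0.66 higher. Of 5 genes of GATOR2, which restrains GATOR1, 3 were higher, among them Seh1l (0.72) and Sec13 (0.44), and 1 lower. Of 8 amino acid sensor genes 3 were higher and 2 lower. The lower ones were Bmt2 (-1.75, SE 0.13), which encodes the S-adenosylmethionine sensor SAMTOR, and Lars (-1.35, SE 0.16), which encodes leucyl-tRNA synthetase.

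The TSC complex turns RHEB off, and both of its main subunit genes were higher in WT TER119+ cells, Tsc1 by 1.16 (SE 0.15, adjusted p = 5.26e-06) and Tsc2 by 1.23 (SE 0.22), while the other 2 genes of that list did not pass. Of the 9 genes of mTOR complex subunits and inhibitors 8 were higher and 1 lower, where 23.5% of all genes were higher and 29.1% lower. Among them were Deptor (0.77, SE 0.13), which encodes an mTOR inhibitor, and Rictor (0.91, SE 0.17), a core subunit gene of the other mTOR complex, mTORC2. Of 12 measured genes of mTORC1 substrates and effectors 8 were higher and 2 lower, beside the same shares of all genes. Ulk1, which encodes the kinase that starts autophagy, stood between 8.83 and 9.12 in TER119+ and between 5.37 and 5.79 in TER119- WT arrays (3.37 higher, SE 0.12, adjusted p = 1.47e-12), and Grb10, which encodes an adaptor that restrains insulin signalling, was 2.55 higher (SE 0.21).

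Among the MiT/TFE genes Tfe3 was 1.41 higher in WT TER119+ cells (SE 0.15) and Tfec, a gene of myeloid cells, was lower (-2.69, SE 0.16), while Tfeb and Mitf did not pass. Of 15 vacuolar ATPase genes 9 were higher and 4 lower, with the lowest adjusted p-values for Atp6v1e1 (1.65, SE 0.09) and Atp6v1b2 (1.64, SE 0.11). Beside this count and the next, 23.5% of all genes were higher and 29.1% lower. Of 21 lysosomal genes 12 were higher and 4 lower, and the lowest adjusted p-values were those of Ctsb (2.50, SE 0.13), which encodes the protease cathepsin B, and Psap (2.91, SE 0.15), which encodes prosaposin. Macrophages and hepatocytes are rich in lysosomes, and their markers were higher in the same arrays, as given above. The part of these cells in the differences of the lysosomal genes was not tested.

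In KO-labelled cells 44 of the 89 were higher in TER119+ cells and 19 lower (22.6% and 26.5% of all genes). The sizes there were 2.56 for Nprl3, 3.09 for Ulk1, -2.20 for Lamtor4 and -1.13 for Slc38a9. The members with the lowest adjusted p in the GATOR2 and mTOR complex lists were other genes than in WT cells: Mios (-0.81) and Wdr59 (-0.58), and Akt1s1 (1.18), which encodes the mTORC1 inhibitor PRAS40, with the mTORC2 subunit gene Mapkap1 (-0.69). No difference between the genotypes was called for any of these genes.

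**Figure D5:**
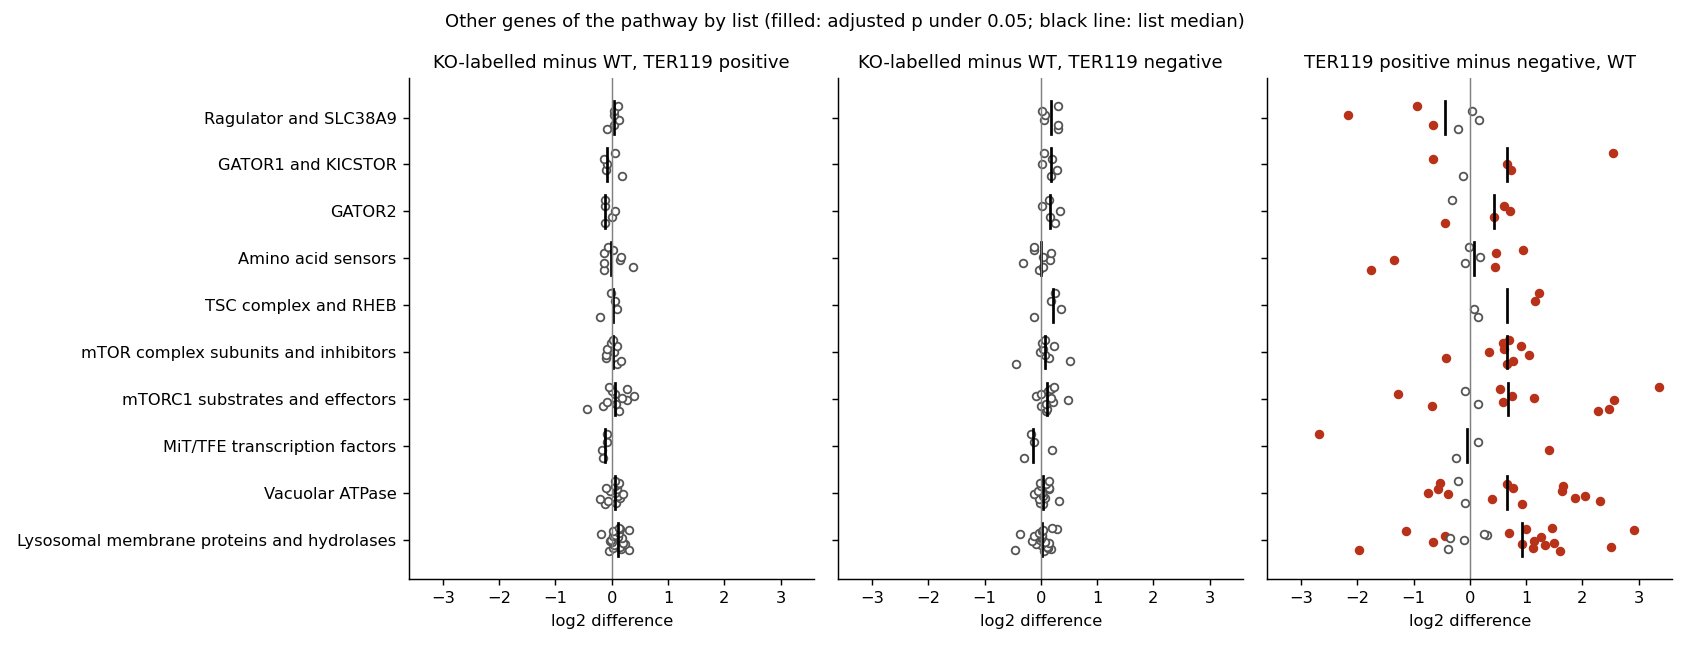
Log2 difference of each measured gene of the 10 pathway lists in 3 comparisons, with filled points for adjusted p under 0.05 and a black line for each list's median. In the KO comparisons 0 of 89 points are filled and all lie between -0.45 and 0.52, while between the WT populations 68 are filled, 49 of them above 0.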

How the data were processed

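Values were read from the deposited table of 35399 probe sets and 15 arrays. They are log2 expression values that the authors made with RMA and Partek, per the submitters' processing notes; neither versions nor whether all arrays were run together are stated there. RMA subtracts background, brings arrays to a like distribution and compresses differences between dim signals. Array medians lay between 5.28 and 5.43. The number of arrays limits the precision.

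The platform's table gave 1 gene symbol to 21789 probe sets and several to 1621, and 11989 are unnamed here. Entrez identifiers in RefSeq (GRCm38.p6) matched 21698 and changed 0 symbols. Where a gene had several probe sets (999 genes) the one of highest mean was kept. All 15 arrays entered 1 linear model with a mean per group (limma 3.58.1, R 4.3.3; 11 residual and 4.91 prior degrees of freedom), with 2-sided moderated tests, Benjamini-Hochberg adjustment over 19938 genes, a threshold of 0.05 and no filter or covariate. The fit was tested on simulated data in which each gene had the same SD in all groups. That test does not cover a spread that differs between the populations. Errors are SDs of levels and SEs of differences.

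The 10 members, the 10 pathway lists and the 6 marker lists were chosen with earlier results of these data known. Genes were named by rule: all members, pathway genes past the threshold in a KO comparison or the interaction, the 2 per list with the lowest adjusted p between populations, the 5 genes most like Rragd and the 3 measured genes on each side of it. No pathway gene passed in a KO comparison or the interaction; those named there, and single markers, were chosen after their values were seen. Other settings tried were a filter on dim genes (highest group mean under 6), quantile normalization, averaged probe sets, a replicate block, a variance trend, a sex factor, a hepatocyte-marker covariate, 1 population alone, and leaving out arrays. Probe sets with several symbols or none were not used here. Python 3.11.15 was used for tables.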

Additional observations from a re-analysis of the deposited data

Results flagged for a closer look

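The effect of the KO label on Rragd differed between the populations, by 3.90 on the log2 scale (interaction, limma, adjusted p = 4.48e-08). The rise was 4.77 in TER119+ cells and 0.86 in TER119- cells, with WT levels of 4.68 in both. No array of a group of 4 lay far from the others for any of the 10 genes (30 groups examined; chance would set apart about 1 in 20).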

How the results depend on the processing

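The rise of Rragd in TER119+ cells lay between 4.73 and 4.79 under 9 other settings and between 4.71 and 4.81 without each array in turn, and was called in all of them. Only quantile normalization, the replicate block, the sex factor, the hepatocyte-marker covariate and leaving out a TER119+ array could move this difference. The other settings alter only its test. Rragd passed the filter on dim genes only through its KO TER119+ level (9.45). The interaction of Rragd was called in all 8 settings and all 15 fits without 1 array (3.71 to 4.04). In TER119- cells its rise stayed above 0 throughout (0.72 to 1.05), and the call was lost as given with the values.

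Genes called in TER119+ cells numbered 203, against 323 without the 3 arrays that stood apart and 350 with that population alone (148 to 226 without each array). In TER119- cells they numbered 17, against 7 with the sex factor, 8 without the 3 arrays, 4 with that population alone and 8 with the hepatocyte-marker covariate (8 to 24 without each array), and the members called, 1, fell to 0 in each of these 4 settings (0 to 1 without each array).

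Member differences near 0 that were not called changed sign. With quantile normalization Rraga, Rragb and Rragc in TER119- cells were -0.085, -0.019 and -0.12, Flcn and Mtor in TER119+ cells -0.037 and -0.053, and the Rragc interaction 0.0049. With the replicate block Flcn and Mtor in TER119+ cells were -0.094 and -0.073. With the sex factor Rragb in TER119- cells was -0.010. Without the 3 arrays Rragb, Rragc, Flcn and Mtor in TER119- cells were -0.094, -0.090, -0.031 and -0.12, and the interactions of Rragc, Flcn, Mtor and Rptor were 0.024, 0.062, 0.13 and 0.15. With the hepatocyte-marker covariate those 4 genes in TER119- cells were -0.028, -0.066, -0.17 and -0.092, and those 4 interactions 0.0068, 0.23, 0.13 and 0.17. Without each array in turn, differences in TER119- cells ran from -0.017 to 0.087 for Rraga, -0.084 to 0.20 for Rragb, -0.054 to 0.11 for Rragc, -0.082 to 0.26 for Flcn and -0.055 to 0.25 for Mtor. In TER119+ cells they ran from -0.023 to 0.093 for Flcn, -0.11 to 0.13 for Mtor and -0.10 to 0.090 for Rheb. Interactions ran from -0.011 to 0.28 for Rragb, -0.23 to 0.11 for Flcn, -0.23 to 0.070 for Mtor and -0.34 to 0.042 for Rptor, and the WT population difference of Rragd from -0.050 to 0.059. The cause was not tested. The call of Rragc between KO-labelled populations was gained with quantile normalization (0.35, adjusted p = 0.00386) and without KO TER119- replicate 1 (0.34, adjusted p = 0.0465).

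Replicate numbers were not taken to pair the arrays. Deviations of same-numbered arrays correlated between -0.38 and 0.65 over 21 pairs, with 6 over 0.1. Of the 7 same-numbered pairs of 1 genotype in both populations, 4 differed in sex. Differently numbered arrays were not correlated beside them, so a litter or batch shared by number was not tested. With the replicate block 186, 13 and 85 genes were called in TER119+ cells, TER119- cells and the interaction, against 203, 17 and 87.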
